A study of Mus musculus with 2 samples.

Results

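EHMT2 ChIP-exo peaks that were narrow, lay in repeated sequence and sat between genes, but still close to one, numbered 3691 of the 12556 deposited peaks. A peak belonged here if it lay on chromosomes 1 to 19 or X, was under 1000 bp wide and had at least 50% of its bases in lower case (soft-masked as repeat) in the GRCm38 assembly. Its summit, the position of highest coverage, also had to lie outside every protein-coding gene of GENCODE vM21, under 200 kb from the nearest protein-coding transcription start site (TSS), and outside the promoter (2.5 kb upstream to 0.5 kb downstream of a TSS) of every annotated gene. The peaks come from mouse embryonic stem cells (mESCs) of the EHMT2-dTAG-mcherry line, a BL6/129 hybrid grown on feeders in FBS and LIF, in which EHMT2 carries a degron and an HA tag. The cells received only the solvent DMSO for 24 h, so the degron was not triggered, and were subjected to ChIP-exo with an antibody against HA, in which exonuclease trims the precipitated DNA back towards the crosslinked protein. The 2 replicates were pooled before peaks were called and formed 1 group, with no control antibody and no EHMT2-depleted cells analysed here. Hence no value has a replicate error and no difference below could be tested, and the 95% intervals cover counting error only.

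EHMT2, also called G9a, is a histone methyltransferase that forms a complex with EHMT1 and deposits H3K9me2, a mark of repressed chromatin. It has no DNA-binding domain of its own and reaches its sites through partner proteins. Mouse embryonic stem cells hold many transposable elements under repressive chromatin, among them LINE-1 retrotransposons, whose promoters in the mouse are built from tandem copies of a unit of about 200 bp followed by the coding sequence, and LTR elements, which carry the same sequence at both ends.

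Tandem units of about this length lay at the summits of many members, and 1 example of each length class is shown because the strongest peaks lay on them. Each is a reference (GRCm38) unit around the summit of a member, written 5′ to 3′ in the direction of the long reading frame that follows it, and capitals mark the 20 bp in which member summits of that class were most frequent. The unit of 201 bp is chr4:75354928-75355128 (minus strand), that of 206 bp is chr1:16953301-16953506 (minus strand), that of 208 bp is chr9:118010957-118011164 (minus strand), that of 212 bp is chr10:33509095-33509306 (minus strand) and that of 214 bp is chr6:140869422-140869635 (minus strand).
unit of 201 bp: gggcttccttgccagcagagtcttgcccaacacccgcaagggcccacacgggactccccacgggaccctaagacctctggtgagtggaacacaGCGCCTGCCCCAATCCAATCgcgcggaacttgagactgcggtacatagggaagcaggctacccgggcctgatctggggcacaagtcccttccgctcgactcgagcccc
unit of 206 bp: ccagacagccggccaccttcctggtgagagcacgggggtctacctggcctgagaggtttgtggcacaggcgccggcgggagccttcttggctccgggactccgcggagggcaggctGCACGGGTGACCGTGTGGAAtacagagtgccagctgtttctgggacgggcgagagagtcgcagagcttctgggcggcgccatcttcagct
unit of 208 bp: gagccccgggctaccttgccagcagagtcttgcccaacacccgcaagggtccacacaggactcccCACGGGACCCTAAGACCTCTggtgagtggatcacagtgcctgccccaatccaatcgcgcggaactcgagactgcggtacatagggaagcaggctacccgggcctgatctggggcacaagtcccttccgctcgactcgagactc
unit of 212 bp: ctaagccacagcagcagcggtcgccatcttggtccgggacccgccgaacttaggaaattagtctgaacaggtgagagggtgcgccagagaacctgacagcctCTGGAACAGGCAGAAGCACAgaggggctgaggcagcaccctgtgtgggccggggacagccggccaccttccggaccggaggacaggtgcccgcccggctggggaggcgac
unit of 214 bp: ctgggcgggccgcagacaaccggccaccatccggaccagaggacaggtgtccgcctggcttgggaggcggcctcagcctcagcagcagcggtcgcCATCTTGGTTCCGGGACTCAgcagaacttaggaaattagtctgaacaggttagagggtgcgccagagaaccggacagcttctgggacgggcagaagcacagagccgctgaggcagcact

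The units fell into 3 groups by sequence. The units of 201 and 208 bp were 97.01% identical, and those of 212 and 214 bp were 88.7% identical. Identity was counted over the length of the shorter unit of a pair, so a difference in length need not lower it. All other pairs, including each pair with the unit of 206 bp, were between 54.8% and 65.5% identical in the best circular alignment.

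The median width of members was 211 bp (quartiles 150 and 411 bp), and 3297 of them (89.3%) were masked over their whole length. That share was 93.7% of narrow repeat peaks in gene deserts (200 kb or more from a TSS), 86.1% inside genes and 73.3% of all peaks. The 50 bp at the summit occurred at least once more in the assembly for 3394 members (92.0%, interval 91.0 to 92.8%), with a median of 526 exact copies. Such summits made up 94.7% in deserts, 88.4% inside genes and 80.9% of all peaks. The rule itself asks for masked sequence, and neither trait was particular to members. Reads with several equally good sites had been written at a randomly chosen one of them, so fragments at 1 of many identical copies cannot be assigned to that copy rather than another. The median distance to the nearest TSS was 58.6 kb.

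Depth behind a member was low. The fragment count at each summit was recovered from the deposited fold enrichment and p-value, and its median was 8 (quartiles 6 and 13, range 4 to 70). The fold enrichment over local background had a median of 5.18 (quartiles 4.38 and 6.72, range 3.02 to 21.8). A total of 1150 members (31.2%) rested on 6 or fewer fragments, and single peaks of that kind should be read with caution. The other narrow repeat peaks were similar, with a median fold of 5.30 for the 3115 in gene deserts (200 kb or more from a TSS) and 5.28 for the 2268 inside protein-coding genes.

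A tandem unit, defined as a repeat of the 150 bp around the summit at 80% identity or more within 500 bp, was found for 1078 members (29.2%, interval 27.8 to 30.7%), and for 17.97% of those under 500 bp wide. Tandem units were at 29.8% of the peaks in gene deserts, 33.5% of those inside genes and 34.7% of all peaks. Unit lengths were not spread evenly. As many as 333 members had a unit of exactly 208 bp, 217 one of 212 bp, 160 one of 214 bp and 65 one of 201 bp, and 885 members (24.0%) in all had a unit of 199 to 216 bp. In gene deserts that share was 27.0% (25.5 to 28.6%) and inside genes 23.5% (21.8 to 25.3%), and the interval for members (22.6 to 25.4%) overlapped that inside genes.

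The unit of 212 bp carried the most fragments. The 223 members with a unit of 211 to 213 bp had a median of 43 fragments (range 6 to 70) and a median fold of 11.99 (interval 11.5 to 12.3). The 338 members with a unit of 207 to 210 bp followed with 18 fragments and a fold of 8.03 (7.76 to 8.33). Members with units of 203 to 206 bp had a median of 15 fragments (n = 79), those of 214 to 216 bp had 14 (n = 162) and those of 199 to 202 bp had 10 (n = 83). These ranges overlapped in single peaks, but the interval of the median fold in the class of 211 to 213 bp lay above that of every other class. The 2613 members without a unit had a median of 7 fragments and a fold of 4.81 (4.73 to 4.86).

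**Figure D1:**
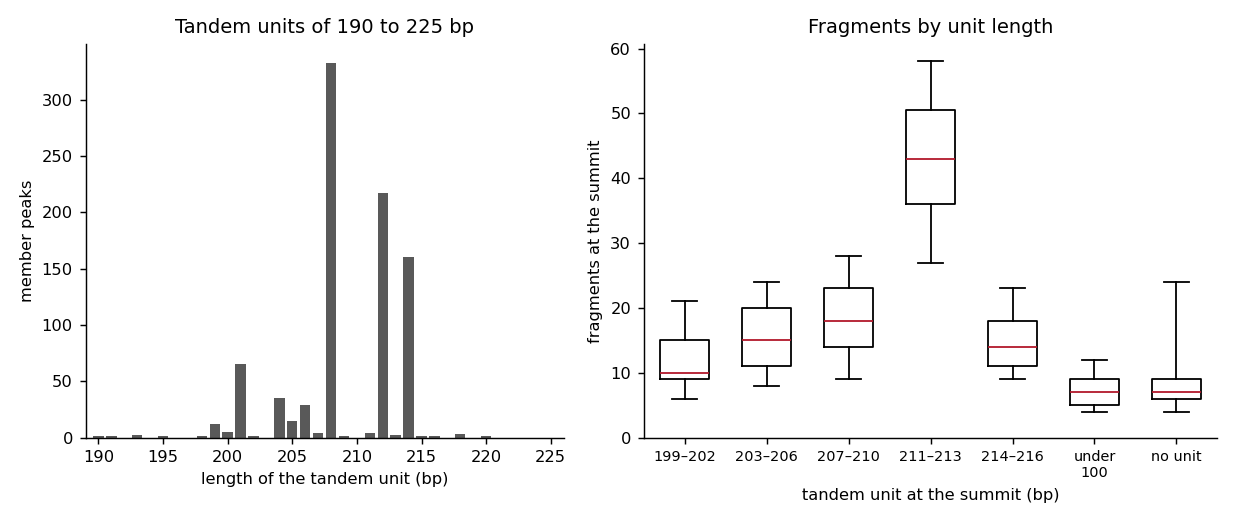
Left, number of member peaks (y axis) by length of the tandem unit at the summit in bp (x axis), with the highest bars at 208, 212 and 214 bp. Right, fragments at the summit (y axis) by unit class (x axis); boxes span the quartiles, red lines are medians and whiskers reach the 5th and 95th percentiles. The class of 211 to 213 bp stands highest, at a median of 43 fragments.

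In the larger classes, arrays with more units had more fragments. Among members with a unit of 207 to 210 bp, the median was 13 fragments (interval 12 to 14) in arrays of under 2.5 units, 18 (17 to 19) in arrays of 2.5 to 3.5 units and 23 (22 to 25) in longer ones. With units of 211 to 213 bp the medians were 37 (36 to 40), 47 (45 to 50) and 54 (47 to 57). The intervals of neighbouring array lengths did not overlap in the first of these classes, whereas in the second those of the longer arrays did. For units of 199 to 202 bp the medians showed no such order (10, 12 and 11 fragments). Within a class, members near to and far from a gene had similar medians. Under 50 kb and at 50 kb or more from the TSS, the medians were 18 and 18 fragments for units of 207 to 210 bp, and 45 (42 to 46) and 42 (40 to 44) for units of 211 to 213 bp. Summit 50-mers had a median of 1167 and 1686 exact copies in these classes, and reads were placed at random among identical copies. The fragment medians therefore cannot show whether distance to a gene matters.

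On the unit of 212 bp, summits were concentrated in a short stretch. Positions count from the start of each unit shown above, which is centred on the summit of 1 member and otherwise arbitrary in a tandem array. Of 221 members placed on the 212-bp unit, 135 (61.1%, interval 54.5 to 67.3%) had their summit within positions 103 to 122, the 20 bp in capitals, where an even spread would put 9.43%. This stretch was chosen for holding the most member summits. The same 20 bp held 54.6% of 273 summits in gene deserts and 57.1% of 154 inside genes. Those peaks lie on copies of the same unit and can share randomly placed reads with members, so they are not an independent measure. On the unit of 214 bp, positions 96 to 115 held 59 of 160 members (36.9%, interval 29.8 to 44.6%), and 29.1% and 30.9% of the summits in deserts and inside genes. For the unit of 208 bp the most frequent 20 bp, positions 66 to 85, held 79 of 336 members (23.5%, interval 19.3 to 28.3%), and 17.6% and 18.2% of the summits in deserts and inside genes. The unit of 206 bp had 28 of 72 members (38.9%) in positions 117 to 136, but only 20.4% (11.5 to 33.6%) in deserts and 12 of 48 (14.9 to 38.8%) inside genes. On the unit of 201 bp, positions 94 to 113 held 17 of 76 members (22.4%), 15.7% (9.01 to 26.0%) in deserts and 14.6% (6.88 to 28.4%) inside genes, and the latter intervals contained the even share of 9.95%.

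**Figure D2:**
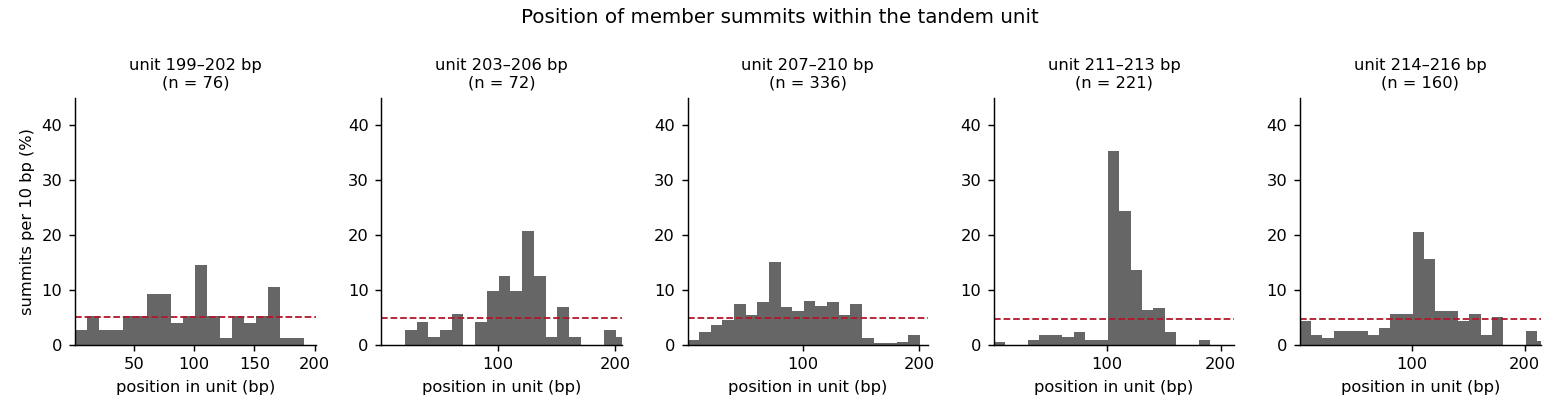
Share of member summits per 10 bp (y axis, %) by position in the tandem unit in bp (x axis), for 5 unit classes; n is the number of members placed, the dashed line is an even spread, and the last bar of a panel covers fewer than 10 bp. Summits on the unit of 211 to 213 bp pile up just past position 100, and those on the unit of 207 to 210 bp are broader.

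The units differed in short motifs within 100 bp of the summit, searched on both strands. The letters AAGATGGC, part of the binding motif of the zinc-finger factor YY1, were present at 16.6% of members, against 3.38% of 1458504 windows of the same length (201 bp) in masked sequence between nearby genes. The share was 18.2% in gene deserts, 16.6% inside genes and 17.5% of all peaks, so it was not particular to members. These letters were found at 180 of 223 members (80.7%) with units of 211 to 213 bp, 69 of 79 (87.3%) with units of 203 to 206 bp and 108 of 162 (66.7%) with units of 214 to 216 bp, but at 0 of 338 with units of 207 to 210 bp. In the units shown above these letters (on the opposite strand) started 80 bp before the capitals in the unit of 212 bp and 2 bp before them in that of 214 bp. In the unit of 206 bp they lay after the capitals, at positions 194 to 201.

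The GC box GGGCGG, which factors of the SP family bind, was at 9.54% of members, 12.6% of all peaks and 1.62% of windows. It was frequent with units of 203 to 206 bp (88.6%) and of 211 to 213 bp (59.2%) and rare with units of 207 to 210 bp (2 of 338). The ETS-factor letters CCGGAAG were at 5.82% of members, 8.06% of all peaks and 0.477% of windows. The E-box CACGTG was at 2.82% of members, 2.63% of all peaks and 1.83% of windows, and the cAMP response element TGACGTCA was at 3 members. Runs of A (AAAAAAAA), which were in 10.6% of windows, were at 1.65% of members and 2.53% of all peaks. GC over the same 201 bp had a median of 49.8% (interval 49.3 to 50.2%) in members, and windows averaged 41.9%.

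Long reading frames followed many of the members. A frame of at least 1000 codons with no stop, outside annotated coding sequence, began within 3 kb downstream of 1054 member summits (28.6%, interval 27.1 to 30.03%), at a median distance of 1561 bp (quartiles 1331 and 1763 bp). The share of such summits was similar elsewhere, at 30.6% in gene deserts, 29.6% inside genes and 27.2% of all peaks. The share depended on the limits, and was 47.5% with frames of 500 codons, 17.4% for members under 500 bp wide and 7.87% for those with at most 10 copies of the summit 50-mer. The frames had a median of 1300 codons, and 1026 of the 1054 held the catalytic motif of LINE-1 reverse transcriptase. Most summits lay upstream of the frames. Within 8 kb of such a frame, 1070 members were upstream, 44 inside and 66 downstream. Where a 208-bp unit had a frame, all 223 arrays pointed along it, which is the direction in which the unit was drawn.

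Fragments differed between members with and without a frame. Members upstream of a frame had a median of 16 fragments (interval 16 to 18) and a fold of 7.39 (7.11 to 7.71), against 7 fragments and 4.85 (4.79 to 4.91) for the others. The orientation of the frame against the nearest gene was close to even, with 560 of 1054 (53.1%, interval 50.1 to 56.1%) on the same strand. Seen from the frames, 1200 of the 2259 that started between nearby genes (53.1%, interval 51.1 to 55.2%) had an EHMT2 summit within 3 kb upstream. The share was 60.8% (58.4 to 63.0%) of 1738 in gene deserts and 56.8% (54.2 to 59.4%) of 1419 inside genes. Not all of these frames held the LINE-1 catalytic motif. It was in 76.3% of those between nearby genes, 84.3% in deserts and 76.0% inside genes. The shares with a summit are over all frames, and frames with the motif were not compared alone.

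Most members shared sequence with many others. The 150 bp to either side of each summit were linked at 80% identity, over all peaks. A summit joined a family by aligning to any 1 of its summits, so members of a family need not align to each other. The largest family held 2079 members (56.3%, interval 54.7 to 57.9%), beside 66.3% of the peaks in gene deserts and 50.7% of those inside genes. The 5 largest held 2879 members, and 218 (5.91%) aligned to no other peak. Nearly all members of all 5 unit classes were in the largest family (97.6 to 100%), although units of different groups were 54.8 to 65.5% identical. In the largest family 42.3% of members had a unit of 199 to 216 bp, against 4.35% or less in each of the next 4 families. It also had 465 members upstream of a frame but without a unit at the summit, with a median of 11 fragments, and 735 with neither, with a median of 8. Its 569 members with both had 21 fragments (quartiles 15 and 36), so the family was not uniform.

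The other large families were weaker. Families 2, 3 and 5 are shown by their members with the highest fold, together with that of the largest family. Each is 150 bp of GRCm38 around the summit (plus strand), and capitals mark the 50 bp whose copies were counted. Family 1 is chr9:36235499-36235648, family 2 is chr1:63782783-63782932, family 3 is chr1:79547738-79547887 and family 5 is chr9:16625772-16625921.
family 1: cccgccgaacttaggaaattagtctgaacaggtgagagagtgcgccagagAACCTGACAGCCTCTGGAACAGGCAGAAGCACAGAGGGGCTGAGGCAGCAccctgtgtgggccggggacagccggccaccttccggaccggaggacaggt
family 2: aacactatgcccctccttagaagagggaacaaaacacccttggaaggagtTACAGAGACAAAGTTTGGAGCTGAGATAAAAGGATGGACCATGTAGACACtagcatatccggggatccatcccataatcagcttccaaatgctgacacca
family 3: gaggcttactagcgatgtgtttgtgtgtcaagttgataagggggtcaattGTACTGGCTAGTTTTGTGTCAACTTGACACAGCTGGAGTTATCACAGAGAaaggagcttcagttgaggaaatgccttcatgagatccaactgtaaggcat
family 5: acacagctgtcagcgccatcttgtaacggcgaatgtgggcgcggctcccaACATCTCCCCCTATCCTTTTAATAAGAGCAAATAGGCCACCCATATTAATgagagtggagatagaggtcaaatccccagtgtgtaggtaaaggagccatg

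Family 1 was represented by a peak on a 212-bp unit with a fold of 21.8 and 39 fragments, 107 kb from Gm5916. Family 2, with 442 members (11.98%), had a median GC of 42.3% against 58.7% in family 1. Its members rested on a median of 5 fragments, with a median fold of 4.54 and 813 copies of the summit 50-mer, and 3 of them (0.679%) preceded a long frame. Here a high copy number did not come with many fragments.

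Families 3 and 5 had medians of 6 and 7 fragments. Family 3 (143 members) had a second copy of the summit sequence on the same strand for 14 members (9.79%). That share was close to the 9.65% of all members and below the 11.8% of all peaks. The median spacing in family 3 was 1489 bp (quartiles 1487 and 1493 bp). In family 10 the spacing was as narrow, at 7984 bp (quartiles 7975 and 7986 bp) for 15 of 44 members. It was wider in family 6, at 2526 bp (2462 and 2645 bp) for 23 of 98 members, and in family 9, at 5188 bp (5171 and 6934 bp) for 15 of 44. Family 2 had such copies for 67 members (15.2%), with spacings spread widely around 4311 bp (2186 and 6483 bp). Pairs of this kind are a general feature of LTR elements, but no repeat names were used here and the families were not assigned to an element. Family 5 (100 members) had a median of 5 CpG dinucleotides within 100 bp of the summit, against 1 in family 3.

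Family 4 was rich in short tandem repeats. Of its 115 members, 46.1% had a tandem unit of under 100 bp, the median number of CpG dinucleotides was 0, and 48.7% had a summit 50-mer that occurs once. The family's share was 3.12% of members, 1.25% of the peaks in deserts and 5.60% of those inside genes. Over all families, short units of under 100 bp followed the same order, at 3.98% (interval 3.40 to 4.66%) of members, 1.70% (1.30 to 2.22%) in deserts and 8.25% (7.18 to 9.45%) inside genes.

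Members with a unique summit form the set whose reads can be placed with most confidence. There were 297 of them (8.05%, interval 7.21 to 8.97%), beside 5.26% of the peaks in deserts, 11.6% inside genes and 19.1% of all peaks. They had a median of 5 fragments and a fold of 4.48, against 10 fragments and 5.53 for the 1333 members with over 1000 copies. Of the 5 strongest, 4 nevertheless belonged to the largest family. The strongest by fold, 27999 bp from Vmn2r69, a vomeronasal receptor gene, had a fold of 13.5 and 42 fragments and preceded a long frame by 1373 bp. It is chr7:85387846-85387995 (GRCm38, plus strand), with the unique 50 bp in capitals.
unique summit near Vmn2r69: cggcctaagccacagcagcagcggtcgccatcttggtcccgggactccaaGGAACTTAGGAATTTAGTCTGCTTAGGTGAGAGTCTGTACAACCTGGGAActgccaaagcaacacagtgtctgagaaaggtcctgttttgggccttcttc

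The next, 2.58 kb upstream of Dlg3, which encodes a synaptic scaffold protein, had a fold of 11.7, 37 fragments and a 212-bp unit. It was followed by a peak with a 208-bp unit 82.5 kb from Cylc2 (fold 10.2, 31 fragments), a gene for a sperm head protein. The fourth lay 82.5 kb upstream of Cypt1 (fold 9.26, 15 fragments). The fifth lay 8.15 kb upstream of Gm5478, between it and the keratin gene Krt6b, with a fold of 9.24 and 12 fragments. All of these but the peak near Cypt1 preceded a long frame.

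Density rose with distance from genes. Counting only sequence in which a summit could qualify (outside protein-coding genes and promoters), there were 4.28 members per Mb over 861 Mb. The density was 2.09 per Mb (interval 1.68 to 2.59) at 0 to 5 kb from the nearest TSS, 3.98 (3.62 to 4.36) at 10 to 20 kb and 5.01 (4.58 to 5.48) at 150 to 200 kb. Masked sequence did not follow this order, being 37.3% of the first of these classes, 41.2% of the second and 37.7% of the last. Beyond 200 kb, the density in gene deserts was 5.53 per Mb (5.34 to 5.73).

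The gradient lay in the largest family. Its density was 0.511 per Mb (interval 0.317 to 0.782) under 5 kb, 1.997 (1.75 to 2.27) at 10 to 20 kb, 3.24 (2.89 to 3.62) at 150 to 200 kb and 3.67 (3.51 to 3.83) in deserts. All other narrow repeat peaks together had 1.58 (1.22 to 2.02), 1.98 (1.73 to 2.25), 1.77 (1.52 to 2.06) and 1.86 (1.75 to 1.98) per Mb in the same classes, and the intervals of these values overlapped. The largest family therefore made up 24.4% of members under 5 kb and 64.7% at 150 to 200 kb. Over the whole set, the density at 100 to 200 kb was 1.39 times that at 5 to 20 kb (interval 1.27 to 1.53), but with only the 572 members whose summit 50-mer has at most 10 copies this ratio was 1.01. How the unoccupied copies of the family are distributed was not tested.

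**Figure D3:**
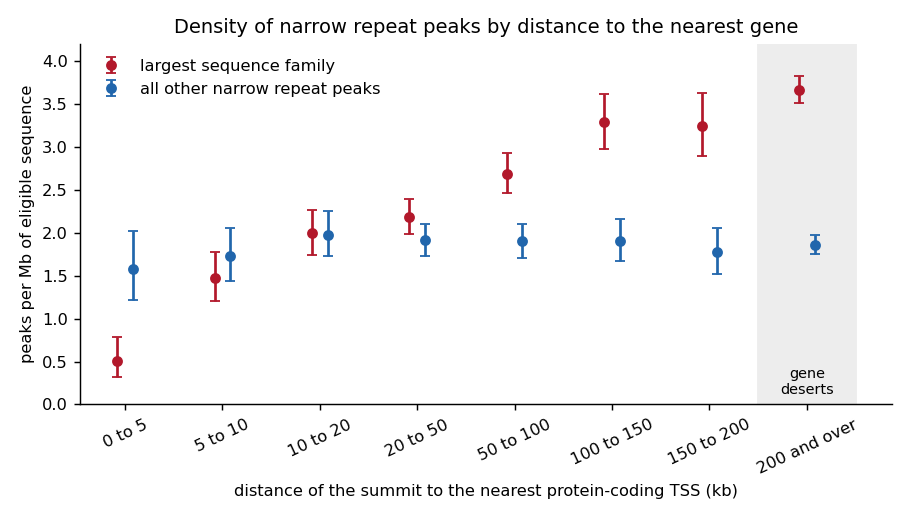
Peaks per Mb of eligible sequence (y axis) by distance of the summit to the nearest protein-coding TSS in kb (x axis), for the largest sequence family (red) and all other narrow repeat peaks (blue); bars are 95% Poisson intervals and the shaded class holds the gene deserts. Red points rise from 0.511 to 3.67 per Mb, whereas blue points stay between 1.58 and 1.98.

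Members lay more often upstream of their nearest gene than downstream of its start, but so did the sequence in which they could lie. A total of 2475 members (67.1%, interval 65.5 to 68.6%) were upstream, over 581 Mb of eligible sequence, which gave 4.26 per Mb (4.09 to 4.43). Downstream the density was 4.33 (4.09 to 4.58). The strand arrangement of the flanking genes made little difference either, with 4.41 members per Mb (4.16 to 4.68) between divergent genes, 4.24 (4.05 to 4.43) between genes on the same strand and 4.24 (3.91 to 4.58) between convergent genes. Annotated noncoding genes and pseudogenes held 326 summits (8.83%, interval 7.96 to 9.79%), although such records covered 12.1% of the eligible sequence. Most of these summits were in lincRNA (160) and antisense (67) records.

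Chromosomes differed somewhat less per masked Mb (8.57 to 13.4) than per Mb of all eligible sequence (3.11 to 5.95). The X chromosome had the highest density of members, 5.95 per Mb (interval 5.41 to 6.52), and 52.0% of its eligible sequence was masked, so that its density per masked Mb (11.4, interval 10.4 to 12.53) was close to that of all chromosomes (10.9). Chromosome 11 had the lowest density per Mb, 3.11 (2.57 to 3.73), which overlapped that of chromosome 2 (3.19, interval 2.75 to 3.69), and 10.4% of its 115 members had a unit of 199 to 216 bp. Chromosome 15 had the highest share of such units, 33.6% of 110 members.

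Most members had no other member close by. Another lay within 10 kb of 725 of them (19.6%, interval 18.4 to 21.0%), and of 1.75% when only the 572 members with at most 10 copies of the summit 50-mer were counted. Of the 376 neighbouring pairs at that distance, 228 (60.6%) were under 1 kb apart, and in 297 (79.0%) both peaks belonged to the same sequence family. Close pairs of this kind may lie in the same repeat copy, which was not tested. Gaps between protein-coding genes held at least 1 member in 2286 of 16472 cases (13.9%), and 1476 of these had exactly 1. Only 69 gaps held 5 or more, and together they had 393 members (10.6%). Members per Mb were lowest in gaps of under 20 kb, at 2.29 (interval 1.88 to 2.75), and highest in gaps of 500 kb or more, at 5.02 (4.71 to 5.33). Between these the rise was not steady, with 4.19 in gaps of 20 to 50 kb and 3.68 in gaps of 50 to 100 kb.

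The gap with most members was that between BC030870 and March1, the gene of a membrane-bound ubiquitin ligase, on chromosome 8. It is 488 kb long and had 12 members, or 31.1 per Mb of eligible sequence. Their folds ran from 3.79 to 10.9. The strongest, with 39 fragments and a 212-bp unit in front of a long frame, lay nearest to March1, and 4 of the 12 had a unit of 199 to 216 bp. The gaps between Pfkp and Adarb2, Eya4 and Rps12, Fam181b and Tenm4, and Nkain3 and Prdm13 held 8 members each. In the gap next to Fam181b they spanned only 81.8 kb, whereas next to Pfkp they spanned 1440 kb. These gaps are 3089 and 1554 kb long. Only 0.385 and 0.383 Mb of them, under 200 kb from a TSS, could hold members. The larger span therefore means members near both ends of the gap.

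**Figure D4:**
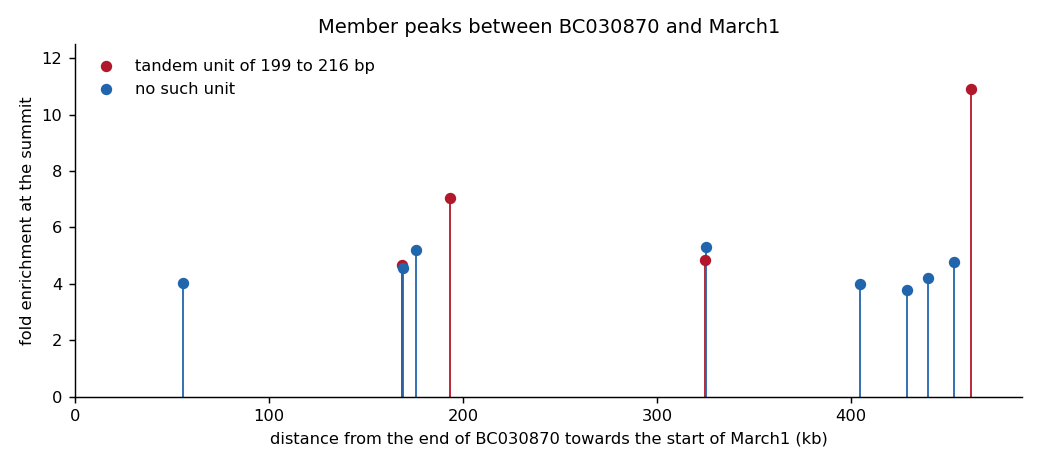
Fold enrichment at the summit (y axis) of the 12 members between BC030870 and March1 by distance from the end of BC030870 in kb (x axis); red marks a tandem unit of 199 to 216 bp and blue no such unit. The highest point, at 10.9, lies close to March1.

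The most significant members were strong peaks on the unit of 212 bp. Of the 10 with the highest −log10 q, 9 had a 212-bp unit, all 10 belonged to the largest family, and 7 preceded a long frame. First was chr1:106854689-106855487, 5.97 kb upstream of Serpinb5, a serpin gene, with 69 fragments and a fold of 17.2. It was followed by peaks between Plcxd3 and C6, a gene of the complement system (70 fragments, fold 16.2), and between Cyp3a25 and Cyp3a59, cytochrome P450 genes of drug metabolism (68 fragments, fold 16.8). The others were upstream of Gm44, of the olfactory receptor gene Olfr380, of the transcription factor gene Mef2a, of Irs4 (an insulin receptor substrate), of Tmem243 and of Unc5d (a netrin receptor), or downstream of the start of Scg2 (a secretogranin). Their fragments ranged from 53 to 70 and their folds from 15.7 to 21.5. Identical copies of the summit 50-mer ranged from 2 for the peak near Scg2 to 4857 for that near Irs4.

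Members were spread over many genes. Of 21755 protein-coding genes, 2485 (11.4%, interval 11.01 to 11.9%) were the nearest gene of at least 1 member, 1702 of them of exactly 1. Within 50 kb of the TSS, 2429 genes (11.2%) had a member. The gene with most was Fam181b, with 8, all of them 66.2 to 148 kb downstream of its start and with folds of 3.52 to 9.76. March1 had 7, all upstream. Tex13c3, Gm5096, Gm10184, 4933402D24Rik, 1700008P02Rik, Pudp, Adcy2 (an adenylate cyclase) and Edem1 (a factor of protein quality control in the endoplasmic reticulum) had 6 each, as did Nkain3, which comes next by the fold of its strongest member. For 5 of the first 10 genes no member lay within 50 kb of the TSS.

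Gene lists were compared by members per Mb of the eligible sequence nearest to their genes, since genes with long surroundings gather more members. Sensory receptor genes were highest. Olfactory receptors had 8.52 members per Mb (interval 7.25 to 9.95) and vomeronasal receptors 6.52 (5.27 to 7.96), against 4.28 over all genes. Per masked Mb the values were 14.4 (12.3 to 16.8) and 10.5 (8.52 to 12.9), against 10.9 (10.6 to 11.3), so that the vomeronasal receptors no longer stood above all genes. Counted by gene, 130 of 1093 olfactory receptors (11.9%) and 75 of 327 vomeronasal receptors (22.9%) were nearest to a member, beside 11.4% of all genes. Within 50 kb of the TSS a member was found for 35.5% of olfactory and 30.9% of vomeronasal receptors, beside 11.2%, but receptor genes lie in clusters and 1 member can be near several of them. Olfr1324 had 5 members and Olfr1507 had 4, and Vmn1r62, Vmn1r1 and Vmn2r118 had 3 each.

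Developmental genes gave another picture. Of 100 germ-layer transcription factor genes, 26 (26.0%, interval 18.4 to 35.4%) were nearest to a member, but their surroundings are long (a median of 65.8 kb of eligible sequence against 13.3 kb for all genes), and the density was 3.40 per Mb (2.37 to 4.73). Within 50 kb of the TSS, 12 of the 100 had a member, beside 11.2% of all genes. Hand2, which acts in heart formation, had 3 members, at 97.3 to 150 kb. Of 24 pluripotency genes, Lin28b, Nr0b1 and Nr5a2 were each nearest to 1 member, at folds of 10.5, 8.01 and 7.22, and the density was 1.09 per Mb (0.225 to 3.19). Hox genes (39) and clustered protocadherins (57) had none, but they had only 0.441 and 0.0644 Mb of eligible sequence, and the upper limits of their densities (8.37 and 57.3 per Mb) lay above the value of all genes.

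Genes of early embryos and of germ cells had densities whose intervals contained that of all genes. Among 59 two-cell and oocyte genes, 11 (18.6%, interval 10.7 to 30.4%) were nearest to a member, beside 11.4% of all genes, at 5.18 per Mb (2.76 to 8.85). Within 50 kb 18 (30.5%) had one, beside 11.2%, but many of these genes also lie in clusters. Per masked Mb the density was 9.14 (4.87 to 15.6), against 10.9 for all genes. The oocyte gene Oog1 had a member with a fold of 13.7 and 54 fragments at 4.37 kb, Zscan4b had 1 with a fold of 9.59 at 25.7 kb, and Zfp352 had 3 with folds of 3.79 to 5.70. Of 53 germline and meiosis genes only Prdm9, which positions meiotic recombination, was nearest to a member (fold 4.21, 5 fragments). That is 1.89% of the list, at 1.05 per Mb (interval 0.0266 to 5.85) over 0.953 Mb of eligible sequence. Of 41 genes of H3K9 methylation and transposon repression only Zfp462 was, with a fold of 4.86 and 7 fragments at 63.4 kb. That is 2.44% of the list, at 1.19 per Mb (0.03 to 6.60) over 0.844 Mb. The share of all genes was 11.4%, and both density intervals contained the 4.28 per Mb of all genes.

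Imprinted genes were nearest to 10 members (7 of 37 genes, 18.9%, beside 11.4% of all genes), at 3.602 per Mb (interval 1.73 to 6.62), and their surroundings are long (a median of 38.1 kb of eligible sequence). Ube3a had 2 members with folds of 8.38 and 13.8, Snrpn had 1 (fold 12.48) and Ndn, 11.3 kb away, had 1 (fold 11.5, 43 fragments), and Calcr had 3. The densities of the remaining lists were 4.15 per Mb for zinc-finger genes (48 of 459 genes, 10.5%), 4.18 for keratins, 4.86 for ribosomal proteins, 5.24 for serpins, 5.66 for the cytochrome P450 2 family and 6.44 for defensins. Their intervals all contained the 4.28 per Mb of all genes. The largest number in these lists was 5 members, for the ribosomal protein gene Rpl10l.

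**Figure D5:**
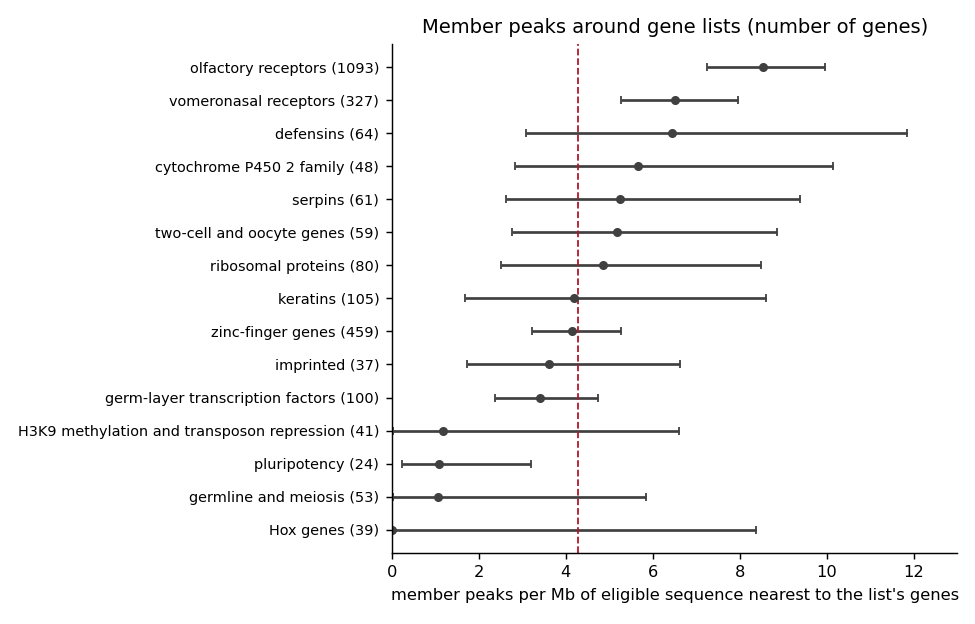
Member peaks per Mb of the eligible sequence nearest to the genes of each list (x axis), for 15 lists (y axis, number of genes in parentheses); bars are 95% Poisson intervals and the dashed line is the 4.28 per Mb of all protein-coding genes. Olfactory and vomeronasal receptors lie to the right of the line with their whole interval, and pluripotency genes, with 3 members, to the left.

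The limits of the rule cut through continuous values. The 103 members within 100 bp below the width limit had a median fold of 10.4 and 37 fragments, and the 81 peaks less than 100 bp too wide had 10.9 and 42, so the strongest peaks of the same kind lay in part beyond the width limit. At 50 to 60% masked bases (46 members) the median fold was 4.42, and at 40 to 50% (66 peaks) it was 4.44. At 190 to 200 kb from the TSS (94 members) it was 5.45, and at 200 to 210 kb (97 peaks) it was 5.25.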

How the data were processed

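The libraries were 2 ChIP-exo replicates of 1 group, merged by the authors before peak calling. As the study's methods and the submitters' processing notes describe, the authors aligned trimmed reads to mm10 with STAR 2.7.10, writing each multi-mapping read once at a random best site, removed duplicates with Picard 2.26.0, dropped high-signal regions and called peaks with MACS2 2.2.6 without a control, keeping q values under 0.05. The deposited peak list gives the fold enrichment (a ratio to local background), −log10 p-values and −log10 q values, and a score that is the q value rescaled. Library depths are not given in the sources used here.

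Fragments at each summit were computed as the whole number that returns the deposited fold and p-value, which held for 99.992% of peaks within 0.0001 on the −log10 p scale. Sequence came from GRCm38 and genes from GENCODE vM21. Copies were exact matches of the 50 bp at the summit on both strands. Families joined summits whose surrounding 150 bp to either side aligned over at least 150 bp at 80% identity (minimap2 2.31). The joining was by single linkage over all peaks, so 1 such alignment was enough to link a summit to a family. Classes of units over 150 bp were centred on lengths held by at least 30 members and no rarer than those 1 bp away, within 2 bp. The class of 203 to 206 bp was centred on 204 bp (35 members), but the unit shown for it is 206 bp long (29 members). Summits were placed on a unit by the surrounding 101 bp at 80% identity or more. A second copy on the same strand was sought 600 to 9000 bp away for 100 bp at 85% identity. Shares have Wilson 95% intervals, densities exact Poisson intervals and medians order-statistic intervals. Scripts (Python 3.11.15, numpy 2.4.6, pandas 2.3.3, scipy 1.17.1) were tested on simulated data.

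The members and gene lists were chosen with earlier results of these data known. Named were the 10 members with the highest −log10 q, the 5 of highest fold with a unique summit 50-mer, the 10 genes nearest to most members, the 5 gaps with most members, the 5 largest families by their strongest member, and up to 4 genes of a list. A sequence and a gene that these rules name are not reported here.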

Additional observations from a re-analysis of the deposited data

How the results depend on the processing

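Of 119 values recomputed under alternatives, 67 stayed within the range given by counting error (counts within 1.5 times) and 52 moved. No replicate could be left out. No paired analysis was possible because both libraries went into 1 peak list. No repeat annotation was used and depth limited single peaks. The density ratio was not computed under 100 kb, nor neighbours for merged members, nor noncoding records once these were left out.

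With q of 0.01 or lower, the share with a repeated 50-mer was 93.3%, in the 5 largest families 79.9%, with a tandem unit 31.9% and upstream of a frame 31.6%. Median GC was 51.2%, fragments 9 and fold 5.36, and 10.4% of genes were nearest to a member. With q of 0.001 or lower, there were 2460 members, and the same values were 94.96%, 83.7%, 39.8%, 38.6%, 53.7%, 11, 5.97 and 8.34%. Members with a neighbour within 10 kb were then 14.8%, and the density ratio of 100 to 200 kb to 5 to 20 kb was 1.55.

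With at most 10 copies of the summit 50-mer there were 572 members, 48.1% with a repeated 50-mer, 51.7% in the 5 largest families, 31.5% with a unit and 7.87% upstream of a frame. Median GC was 47.3%, fragments 6 and fold 4.54, 2.501% of genes were nearest to a member, 1.75% had a neighbour and the density ratio was 1.01. This setting removes copies by construction, and the cause of the other changes was not tested.

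With width under 500 bp, these shares were 90.2%, 72.7%, 17.97% and 17.4%, median GC was 47.3%, fragments 7 and fold 4.85, 17.6% had a neighbour and 9.85% of genes were nearest. Under 100 kb from the TSS, 76.0% were in the 5 largest families, 69.1% were upstream of their gene, 18.2% had a neighbour and 9.15% of genes were nearest. With at least 80% lower-case bases, 94.4% had a repeated 50-mer, 80.7% were in the 5 largest families and 10.98% of genes were nearest. Outside gene records of every type, 10.6% of genes were nearest. With members under 10 kb apart counted once, the median fold was 5.30 and 31.2% had a unit. A 100-mer in place of the 50-mer gave 76.9% repeated, 90% identity between units gave 24.4% with a unit, and frames of 500 codons gave 47.5%.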
